A study of Mus musculus with 24 samples.

Results

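The genes described are 35 mouse genes of glycolysis and of the response controlled by hypoxia-inducible factor 1 (HIF1). They were taken by symbol from the 52636 genes of the deposited count tables, and all 35 were found. Of these, 34 passed a filter on low counts and were tested, among 14681 genes tested in all. Gapdh did not pass: it had 105 counts over all 24 libraries, between 0 and 11 in each.

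RNA was sequenced from bone marrow-derived macrophages, obtained by culturing mouse bone marrow with the growth factor M-CSF. There were 24 libraries in 8 groups of 3: TBK1-WT ∆control, TBK1-WT ∆IKKe, TBK1-cKD ∆control and TBK1-cKD ∆IKKe, each without treatment and with R837 given for 8 h. R837, or imiquimod, is an agonist of Toll-like receptor 7. The kinases TBK1 (gene Tbk1) and IKKe (gene Ikbke) are relatives that act in innate immune signalling. ∆IKKe stands for an IKKe knockout, and cKD is named a conditional knockout of TBK1 in the series record. The allele, the exons removed, any Cre driver and what ∆control stands for are not described in the sources used here. The protocol text on every record names wild-type C57BL/6N mice and 3 individual mice as the biological replicates, and no age. Replicate numbers below follow record order and were not used to pair libraries.

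HIF1 is a transcription factor whose alpha subunit, encoded by Hif1a, is made continuously and destroyed when oxygen is present, after prolyl hydroxylases such as those encoded by Egln1 and Egln3 have marked it. When it is stable it switches on glucose transporters, nearly every enzyme of glycolysis, and genes that limit mitochondrial use of pyruvate. Macrophages activated through Toll-like receptors are known to raise Hif1a RNA and to shift to glycolysis even where oxygen is plentiful.

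The HIF1 complex binds a short core, ACGTG or GCGTG. In RefSeq (GRCm38.p6), 33 of the 35 genes had a start site in the promoter table used here (Ero1l and Ndrg1 did not), and ACGTG lay on either strand within 250 bases before a start of 21 of the 33 (63.6%). It lay there in 18.5% of all 27025 genes and in 16.6% of all 32851 start sites. GCGTG was found in 21 of the 33 (63.6%) and in 30.9% of all genes. The palindrome CACGTG, which holds ACGTG on both strands and is also the core of other factors, was found in 5 of the 33 (15.2%) and in 6.86% of all genes. A match is a description of the sequence and not a bound site. Direction after R837 varied with and without ACGTG: Adm, Tpi1, Eno1, Gpi1, Pfkl and Hk1 have no ACGTG in this window and rose in all 4 genotypes, and Hk3, which has it, rose in none. Of those that rose, Adm, Eno1, Pfkl and Hk1 hold the other core, GCGTG, in the window, and Tpi1 and Gpi1 hold neither. The 250 bases before the start are printed for 5 genes with ACGTG that the results below turn on, and for Adm and Eno2, which have none and of which Adm rose and Eno2 fell, with ACGTG and its reverse complement in capitals. They lie at chr7:46845554-46845803 (+ strand) for Ldha, chr11:120948817-120949066 (+ strand) for Slc16a3, chr4:119108495-119108744 (+ strand) for Slc2a1, chr12:54203875-54204124 (- strand) for Egln3, chr12:73907617-73907866 (+ strand) for Hif1a, chr7:110627407-110627656 (+ strand) for Adm and chr6:124769674-124769923 (- strand) for Eno2, all in GRCm38.p6.
Ldha: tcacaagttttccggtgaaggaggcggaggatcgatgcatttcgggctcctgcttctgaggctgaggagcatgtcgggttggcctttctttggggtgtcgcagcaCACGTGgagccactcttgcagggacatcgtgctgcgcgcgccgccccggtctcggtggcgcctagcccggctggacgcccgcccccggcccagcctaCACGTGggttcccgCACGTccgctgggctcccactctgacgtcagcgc
Slc16a3: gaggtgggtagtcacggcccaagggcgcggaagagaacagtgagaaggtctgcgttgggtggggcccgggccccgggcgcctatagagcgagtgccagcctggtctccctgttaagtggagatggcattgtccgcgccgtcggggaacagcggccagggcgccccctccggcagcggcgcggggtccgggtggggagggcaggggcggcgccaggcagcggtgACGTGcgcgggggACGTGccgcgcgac
Slc2a1: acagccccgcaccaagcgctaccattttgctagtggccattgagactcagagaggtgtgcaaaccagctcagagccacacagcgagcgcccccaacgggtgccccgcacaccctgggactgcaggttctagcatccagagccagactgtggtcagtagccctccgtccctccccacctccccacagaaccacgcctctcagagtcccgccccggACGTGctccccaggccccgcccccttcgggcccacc
Egln3: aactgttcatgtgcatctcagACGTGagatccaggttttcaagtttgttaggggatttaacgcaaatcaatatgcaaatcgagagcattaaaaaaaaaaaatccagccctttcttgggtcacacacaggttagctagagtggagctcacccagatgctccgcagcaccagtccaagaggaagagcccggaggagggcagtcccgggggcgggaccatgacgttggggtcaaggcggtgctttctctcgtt
Hif1a: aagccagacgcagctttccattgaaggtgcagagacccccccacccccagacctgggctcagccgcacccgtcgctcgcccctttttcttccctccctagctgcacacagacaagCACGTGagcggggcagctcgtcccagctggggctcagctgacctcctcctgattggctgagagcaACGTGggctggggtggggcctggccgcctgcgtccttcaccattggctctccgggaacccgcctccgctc
Adm: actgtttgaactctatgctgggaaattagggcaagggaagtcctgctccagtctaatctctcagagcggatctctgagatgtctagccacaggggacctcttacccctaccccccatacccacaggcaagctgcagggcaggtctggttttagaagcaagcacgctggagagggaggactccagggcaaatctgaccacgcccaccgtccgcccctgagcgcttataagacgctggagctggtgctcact
Eno2: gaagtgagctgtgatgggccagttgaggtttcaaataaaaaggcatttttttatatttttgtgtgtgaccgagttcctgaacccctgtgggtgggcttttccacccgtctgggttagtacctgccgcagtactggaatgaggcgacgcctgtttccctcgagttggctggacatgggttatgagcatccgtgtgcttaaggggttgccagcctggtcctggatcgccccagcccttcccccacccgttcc
The Ldha stretch holds 5 matches, 4 of them in 2 CACGTG palindromes. The Hif1a stretch holds 3, Slc16a3 2, and Slc2a1 and Egln3 1 each.

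Depth lay between 19.7 and 41.3 M counts on genes per library, and replicate 2 of R837-treated TBK1-cKD ∆control was the shallowest. Levels are log2 CPM (counts scaled to a common depth), and gene positions are in GRCm38. As a check of the labels, untreated Tbk1 was 6.67, 6.70 and 6.65 in TBK1-WT ∆control and 6.25, 6.21 and 6.20 in TBK1-cKD ∆control, with 6.46, 6.50 and 6.47 under the label TBK1-cKD ∆IKKe. After R837 Tbk1 was 7.21, 6.89 and 6.95 in TBK1-WT ∆control, 6.90, 6.97 and 6.86 in TBK1-WT ∆IKKe, 6.69, 6.55 and 6.75 in TBK1-cKD ∆control and 6.85, 6.86 and 7.09 under the label TBK1-cKD ∆IKKe, where it overlapped both TBK1-WT groups and lay above TBK1-cKD ∆control. Against TBK1-WT ∆control, Tbk1 under that label differed by -0.20 ± 0.07 (adjusted p = 0.0925) untreated and by -0.08 ± 0.07 (adjusted p = 0.445) after R837, and in TBK1-cKD ∆control by -0.45 ± 0.07 (adjusted p = 0.000674) and by -0.36 ± 0.07 (adjusted p = 0.0037). Untreated Ikbke was 5.88, 5.90 and 5.90 in TBK1-WT ∆control and 5.17, 5.11 and 5.13 in TBK1-WT ∆IKKe, but 6.33, 6.26 and 6.35 under the label TBK1-cKD ∆IKKe against 6.16, 6.21 and 6.25 in TBK1-cKD ∆control. After R837 Ikbke was 7.90, 7.90 and 7.95 in TBK1-cKD ∆control and 6.28, 6.37 and 8.02 in those labelled TBK1-cKD ∆IKKe. Ikbke RNA therefore went against the label in the 3 untreated libraries and in R837 replicate 3 of that group. Tbk1 RNA in its 3 R837 libraries lay above TBK1-cKD ∆control on this scale. Replicate 3, at 7.09, was within TBK1-WT ∆control, and replicates 1 and 2, at 6.85 and 6.86, were below all 3 libraries of TBK1-WT ∆control. RPKM (reads per kilobase of gene, scaled for depth) has no correction for composition. By RPKM, Tbk1 in replicates 1 and 2 was 28.1 and 28.4, within TBK1-cKD ∆control (25.7 to 29.3). Replicate 3, at 34.5, was within the TBK1-WT libraries (32.0 to 43.1). All 6 are called labelled TBK1-cKD ∆IKKe throughout. The mean level of 3 RNAs retained in the nucleus (Malat1, Neat1, Xist) was between 8.95 and 9.46 in the 12 untreated libraries, 8.94 in R837 replicate 1 of TBK1-WT ∆control, 9.15 in R837 replicate 3 of the labelled TBK1-cKD ∆IKKe group, and 5.25 to 5.64 in the other 10 R837 libraries. The 2 R837 libraries at the high level also had the highest Ikbke and Tbk1 RNA of their groups by RPKM. Ikbke was at 107.5 against 57.0 and 59.3 in TBK1-WT ∆control and 60.1 against 17.3 and 18.4 under the label TBK1-cKD ∆IKKe. Tbk1 was at 43.1 against 33.6 and 34.4, and at 34.5 against 28.1 and 28.4. The part of the nuclear RNA level in the results was not tested beyond the values given with it as a covariate (high or low), without those 2 libraries, and on only the 14 libraries at the high level. In TBK1-WT ∆IKKe and TBK1-cKD ∆control the covariate coincides with treatment. Its size is set in the other R837 groups, by those 2 libraries against the rest of their groups. It therefore cannot tell treatment from nuclear RNA level in TBK1-WT ∆IKKe and TBK1-cKD ∆control. The 10 macrophage markers summed to 18876 to 33516 CPM per library, and markers of neutrophils, lymphocytes, dendritic, mast and erythroid cells to at most 5.03 CPM each. The 5 stromal markers, none at 0 in all libraries, summed to 13.7 to 66.8 CPM and differed between the groups, as given with the genotype comparisons.

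Pgk1 with 11032 counts and Pgam1 with 2267 counts over all libraries were, like Gapdh, far below their neighbours in the pathway (Aldoa had 954626). These genes have near-identical processed copies elsewhere in the genome: 2 named Pgam1 copies held 2558 counts, more than Pgam1 itself. Named copies of Gapdh held 12 counts and those of Pgk1 held 2. Whether reads of these genes were lost to copies was not tested, and the values of Gapdh, Pgk1 and Pgam1 are uncertain. Named copies of Tpi1 held 51053 counts, against 523873 for Tpi1 itself, those of Aldoa 6315 and those of Ldha 136. Aldoa has a second identifier with 199 counts that was not used.

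**Figure D1:**
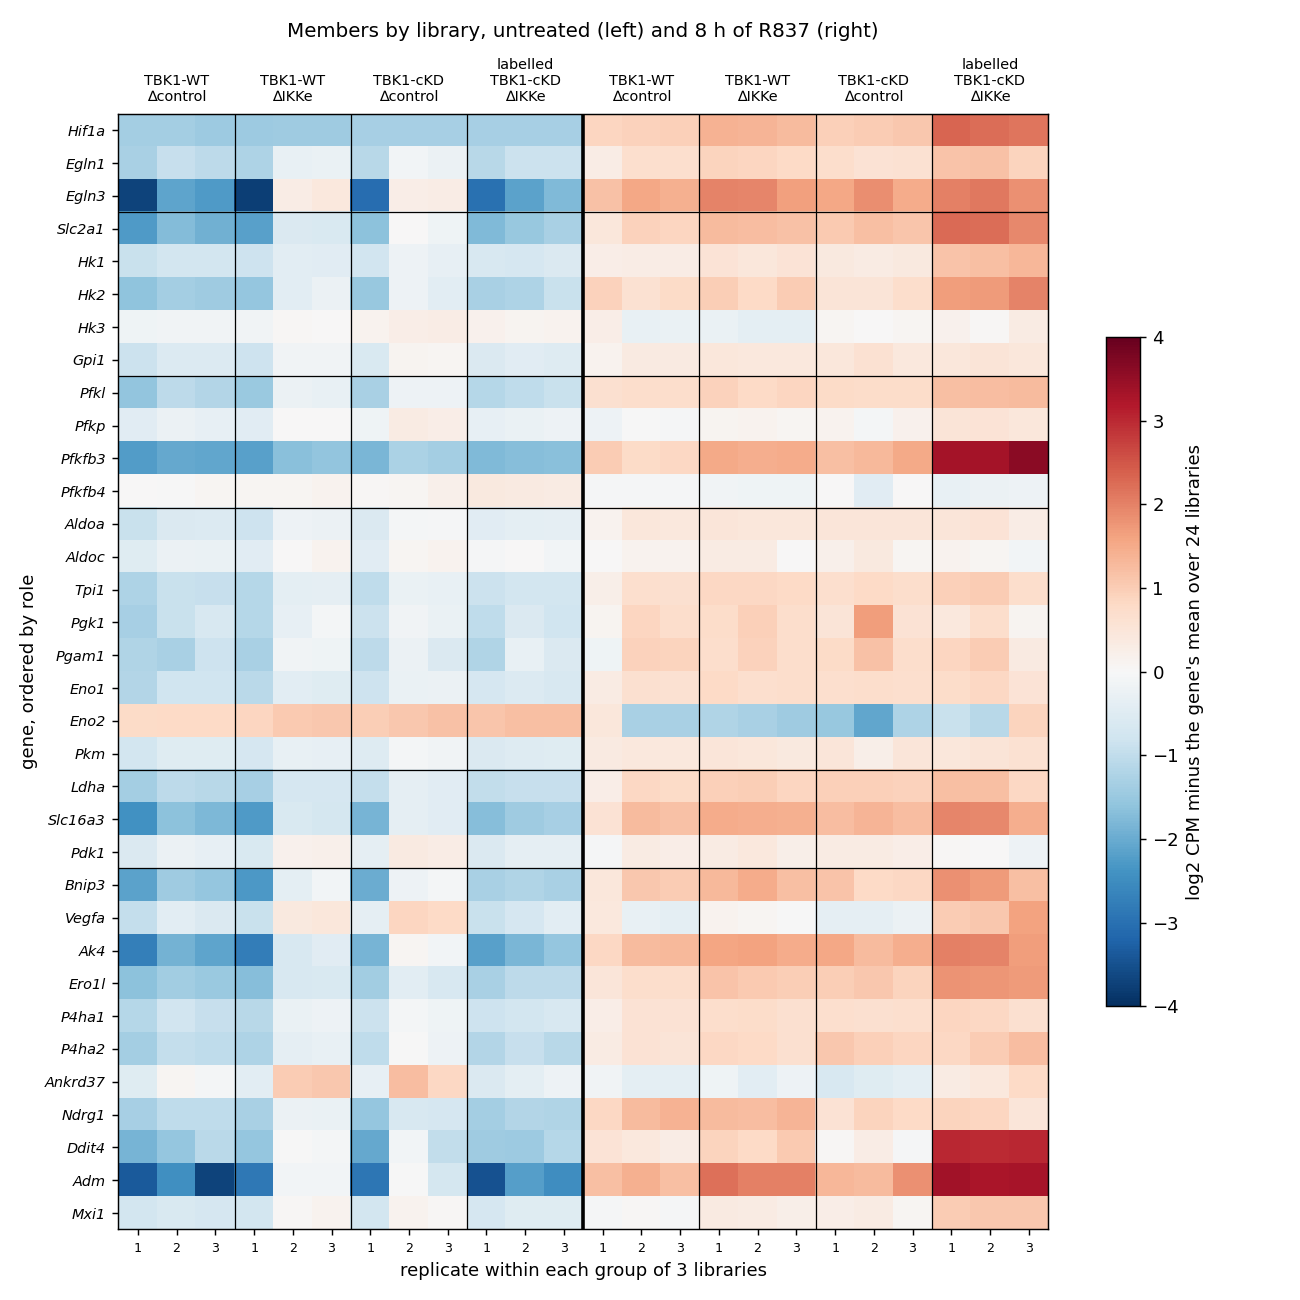
Levels of the 34 tested genes in 24 libraries, as log2 CPM minus each gene's mean over all libraries (colour, from -4 to 4), with genes in rows by role and libraries in columns, untreated on the left of the thick line and 8 h of R837 on the right. Most rows turn from blue to red after R837, and untreated replicates 2 and 3 of TBK1-WT ∆IKKe and TBK1-cKD ∆control are paler or redder than replicate 1 of the same group.

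Untreated macrophages of one genotype differed widely in these genes. In untreated TBK1-WT ∆IKKe the median gene differed by 0.92 log2 CPM between its lowest and highest replicate, and in TBK1-cKD ∆control by 0.80. Over all tested genes that range had a median of 0.17 in both groups. In untreated TBK1-WT ∆control the members' median range was 0.34 and in the labelled TBK1-cKD ∆IKKe group 0.21. The range passed 1 log2 unit, a 2-fold difference, for 15 of 34 members in TBK1-WT ∆IKKe and 11 of 34 in TBK1-cKD ∆control (6.11% and 6.20% of all genes), and for 2 of 34 in each of the other untreated groups (5.02% and 5.80%). After R837 the members' median ranges were 0.12 to 0.32, below those of all genes in each group (0.18 to 0.41). Fewer cells expressing a gene and less RNA per cell cannot be told apart in such bulk samples.

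The spread had the same order for nearly all members. Replicate 1 was the lowest of 3 for 30 of 34 members (TBK1-WT ∆control), 34 (TBK1-WT ∆IKKe), 33 (TBK1-cKD ∆control) and 27 (labelled TBK1-cKD ∆IKKe). The median gene of all those tested was within 0.01 log2 CPM of the mean of its other replicates in each of these 4 libraries. The scaling itself centres that median, so it cannot show whether the low position of replicate 1 is particular to the members. The share of all genes with replicate 1 lowest was not counted. Replicate 1 was also the deepest library of each untreated group, at 40.9, 39.1, 40.3 and 34.4 M counts on genes in the same order. The other untreated libraries had 20.3 to 37.1 M, and the part of depth was not tested. Of the 12 untreated libraries, replicates 2 and 3 of TBK1-WT ∆IKKe were among the 4 highest for 28 and 30 members, and replicates 2 and 3 of TBK1-cKD ∆control for 31 and 32. This too was not counted over all genes. The members' share of all gene counts was 0.413% to 0.529% in the other 8 untreated libraries, 0.677% to 0.775% in these 4 and 1.0% to 1.55% after R837. The labels do not tie replicates of different groups to one mouse, culture or day, and the cause was not tested.

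Hif1a (chr12:73901375-73947530, + strand) itself, whose product is the oxygen-regulated subunit, varied little. Its untreated levels were 6.84, 6.83 and 6.76 for TBK1-WT ∆control, 6.74, 6.77 and 6.80 for TBK1-WT ∆IKKe, 6.88, 6.88 and 6.87 for TBK1-cKD ∆control, and 6.88, 6.88 and 6.88 for those labelled TBK1-cKD ∆IKKe, a range of 0.15 over the 12 libraries. Egln3 (chr12:54178981-54203860, - strand) encodes a prolyl hydroxylase that marks HIF1 alpha for destruction and is itself a HIF1 target. Its untreated levels were 1.64, 3.23 and 3.07 for TBK1-WT ∆control, 1.58, 5.65 and 5.78 for TBK1-WT ∆IKKe, 2.30, 5.62 and 5.63 for TBK1-cKD ∆control, and 2.37, 3.20 and 3.59 for those labelled TBK1-cKD ∆IKKe. The library at 5.78 stood 18.4-fold above that at 1.58, with both in TBK1-WT ∆IKKe.

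After R837, Hif1a stood at 9.07, 9.13 and 9.15 for TBK1-WT ∆control, 9.58, 9.57 and 9.47 for TBK1-WT ∆IKKe, 9.16, 9.21 and 9.27 for TBK1-cKD ∆control, and 10.52, 10.43 and 10.36 for those labelled TBK1-cKD ∆IKKe. All 12 R837 libraries lay above all 12 untreated ones. The 4 R837 groups did not overlap in log2 CPM, in the rising order TBK1-WT ∆control, TBK1-cKD ∆control, TBK1-WT ∆IKKe and labelled TBK1-cKD ∆IKKe, with the first and second next to each other at 9.15 and 9.16. By RPKM the first and second overlapped, with TBK1-WT ∆control up to 88.3 and TBK1-cKD ∆control from 86.6. Hif1a rose by 2.31 ± 0.05 (adjusted p = 6.04e-19) for TBK1-WT ∆control, 2.77 ± 0.05 (adjusted p = 4.13e-20) for TBK1-WT ∆IKKe, 2.34 ± 0.05 (adjusted p = 4.6e-19) for TBK1-cKD ∆control and 3.56 ± 0.05 (adjusted p = 3.63e-21) for the labelled TBK1-cKD ∆IKKe libraries, on the log2 scale, by the quasi-likelihood test of edgeR with Benjamini-Hochberg adjustment over all genes. Egln3 after R837 stood at 6.52, 6.89 and 6.77 for TBK1-WT ∆control, 7.32, 7.31 and 6.98 for TBK1-WT ∆IKKe, 6.91, 7.20 and 6.82 for TBK1-cKD ∆control, and 7.37, 7.47 and 7.18 for those labelled TBK1-cKD ∆IKKe. It rose by 3.95 ± 0.76 (adjusted p = 0.000131) for TBK1-WT ∆control, 2.05 ± 0.69 (adjusted p = 0.012) for TBK1-WT ∆IKKe, 1.89 ± 0.69 (adjusted p = 0.0191) for TBK1-cKD ∆control and 4.21 ± 0.77 (adjusted p = 5.92e-05) for the labelled TBK1-cKD ∆IKKe libraries. The R837 libraries of the 4 genotypes lay within 0.95 of each other, while the untreated ones spanned 4.20. The TBK1-cKD ∆control call ended without untreated replicate 1, at 1.36 (adjusted p = 0.0685). With nuclear RNA as a covariate it was 1.66 (adjusted p = 0.0841), and the TBK1-WT ∆IKKe value 1.81 (adjusted p = 0.0556).

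Egln1 (chr8:124908587-124949324, - strand), the main prolyl hydroxylase for HIF1 alpha, moved less. Its untreated levels were 5.85, 6.22 and 6.08 for TBK1-WT ∆control, 5.89, 6.83 and 6.88 for TBK1-WT ∆IKKe, 6.02, 7.01 and 6.91 for TBK1-cKD ∆control, and 6.04, 6.28 and 6.27 for those labelled TBK1-cKD ∆IKKe. With R837 the levels became 7.45, 7.82 and 7.79 for TBK1-WT ∆control, 8.04, 7.98 and 7.93 for TBK1-WT ∆IKKe, 7.84, 7.72 and 7.74 for TBK1-cKD ∆control, and 8.27, 8.32 and 8.04 for those labelled TBK1-cKD ∆IKKe, above every untreated library. Its rises were 1.64, 1.39, 1.06 and 2.02 in the 4 genotypes in the order used above. On the per-length scale (RPKM, reads per kilobase of gene, scaled for depth), Egln1 exceeded Egln3 by 8.54 ± 4.5 times (SD, n = 3) in untreated TBK1-WT ∆control and by 1.44 ± 0.057 times after R837.

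**Figure D2:**
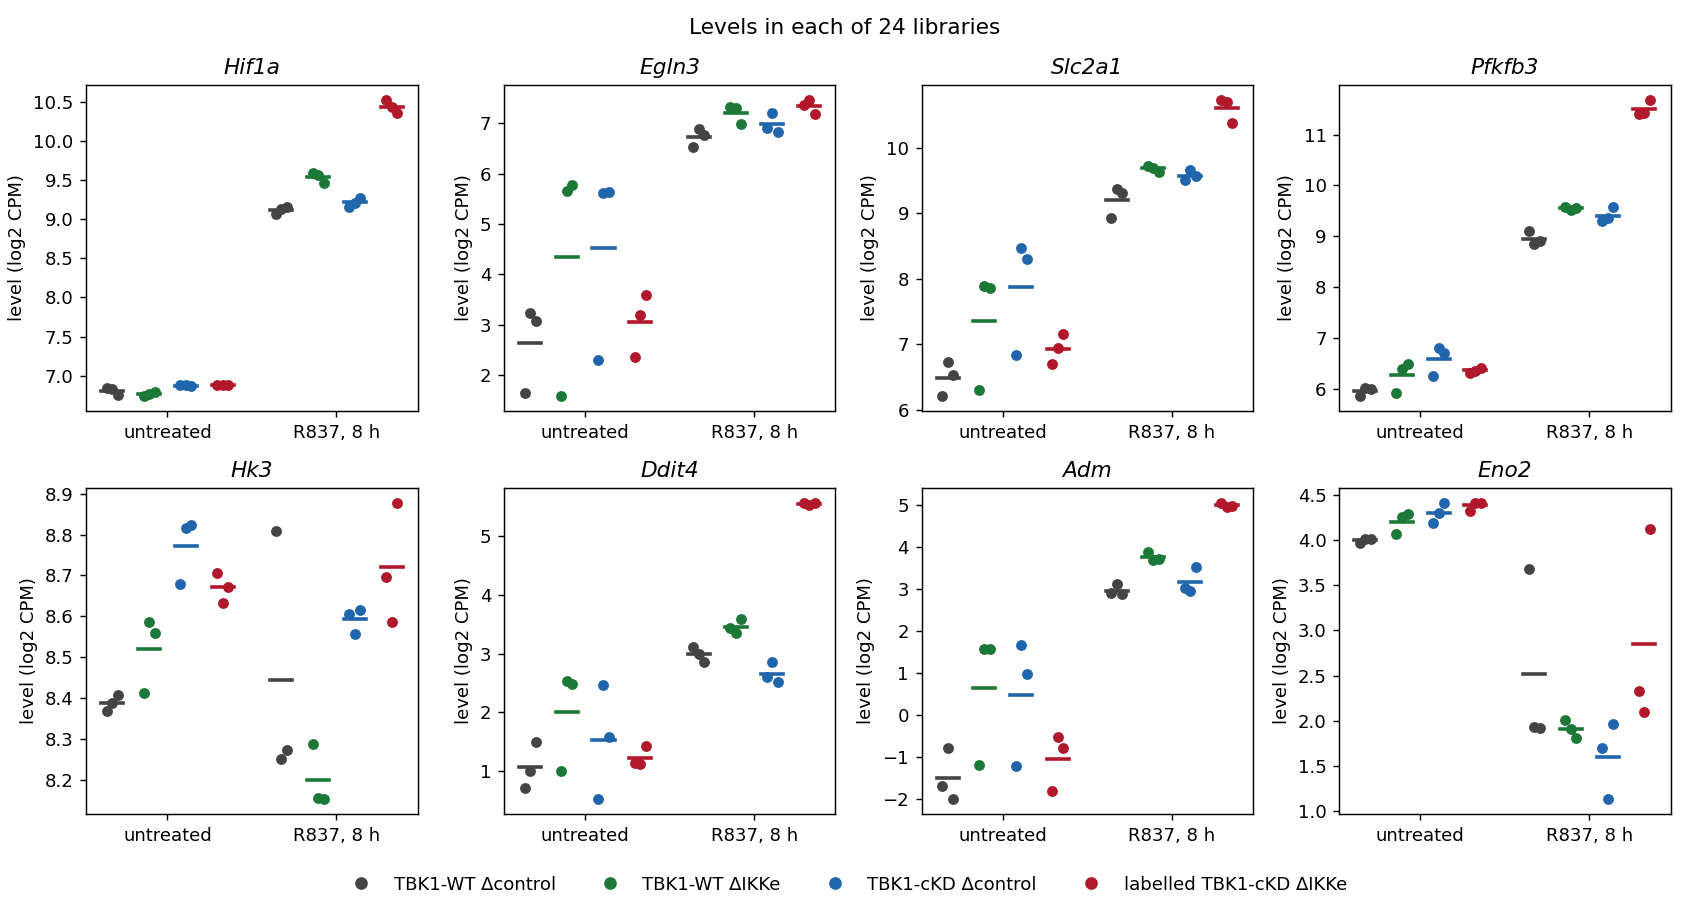
Level of 8 genes in each library (points, log2 CPM, each panel with its own vertical axis that does not start at 0) with the mean of 3 (bars), untreated and after 8 h of R837. Hif1a is even across untreated libraries, Egln3, Slc2a1 and Adm are split between replicates of the same untreated group, and Pfkfb3, Ddit4 and Adm are highest in the R837 libraries labelled TBK1-cKD ∆IKKe.

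Across the list, R837 raised most genes in each genotype. In TBK1-WT ∆control 28 of 34 members rose and 1 fell, where 30.6% of all tested genes rose and 32% fell. Their median change was 1.55 on the log2 scale, against -0.04 for all genes. In TBK1-WT ∆IKKe 26 rose and 4 fell (32.4% and 37.8% of all genes), with a median of 1.34. In TBK1-cKD ∆control 25 rose and 4 fell (31.6% and 37.5%), with a median of 1.15. In the labelled TBK1-cKD ∆IKKe libraries 29 rose and 2 fell (31.6% and 34.8%), with a median of 1.89. For 23 of the 34, all 12 R837 libraries lay above all 12 untreated libraries (17.6% of all genes), and for none did they all lie below (20.5%). Without a correction for composition the median of all genes fell by a further 0.26 to 0.39 in the 4 responses, so that in TBK1-WT ∆control 2779 genes rose and 6754 fell, against 4489 and 4700 with it. The members that rose were then 25, 25, 23 and 28 in the 4 genotypes, and those that fell 2, 4, 6 and 4.

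Glucose entry was among the strongest responses. Slc2a1 (chr4:119108711-119137983, + strand) encodes GLUT1, the transporter that macrophages raise on activation. Its untreated levels were 6.20, 6.72 and 6.53 for TBK1-WT ∆control, 6.30, 7.88 and 7.87 for TBK1-WT ∆IKKe, 6.84, 8.47 and 8.30 for TBK1-cKD ∆control, and 6.70, 6.94 and 7.16 for those labelled TBK1-cKD ∆IKKe. In treated libraries they were 8.92, 9.37 and 9.32 for TBK1-WT ∆control, 9.73, 9.70 and 9.64 for TBK1-WT ∆IKKe, 9.51, 9.66 and 9.57 for TBK1-cKD ∆control, and 10.74, 10.70 and 10.39 for those labelled TBK1-cKD ∆IKKe. The treated and untreated libraries did not overlap in any genotype, although replicates 2 and 3 of untreated TBK1-WT ∆IKKe and TBK1-cKD ∆control were already above every other untreated library. The rises were 2.72 ± 0.35 (adjusted p = 9.27e-07) for TBK1-WT ∆control, 2.17 ± 0.34 (adjusted p = 1.14e-05) for TBK1-WT ∆IKKe, 1.55 ± 0.34 (adjusted p = 0.000414) for TBK1-cKD ∆control and 3.67 ± 0.37 (adjusted p = 1.57e-08) for the labelled TBK1-cKD ∆IKKe libraries.

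The hexokinases, which trap glucose as glucose 6-phosphate, did not move together. Hk2 (chr6:82725025-82774454, - strand), the inducible form, was 5.32, 5.59 and 5.50 for TBK1-WT ∆control, 5.39, 6.50 and 6.72 for TBK1-WT ∆IKKe, 5.44, 6.73 and 6.50 for TBK1-cKD ∆control, and 5.64, 5.69 and 6.04 for those labelled TBK1-cKD ∆IKKe when untreated. With R837 the levels became 7.86, 7.55 and 7.69 for TBK1-WT ∆control, 7.94, 7.75 and 7.94 for TBK1-WT ∆IKKe, 7.45, 7.46 and 7.64 for TBK1-cKD ∆control, and 8.62, 8.63 and 8.91 for those labelled TBK1-cKD ∆IKKe. It rose by 2.23, 1.57, 1.20 and 2.92 in the 4 genotypes, adjusted p at most 0.000532. Hk1 (chr10:62268855-62379908, - strand), the form present in most tissues, was 7.02, 7.16 and 7.17 for TBK1-WT ∆control, 7.08, 7.48 and 7.45 for TBK1-WT ∆IKKe, 7.15, 7.68 and 7.58 for TBK1-cKD ∆control, and 7.26, 7.22 and 7.32 for those labelled TBK1-cKD ∆IKKe when untreated. In treated libraries it was 8.17, 8.19 and 8.20 for TBK1-WT ∆control, 8.45, 8.35 and 8.46 for TBK1-WT ∆IKKe, 8.31, 8.24 and 8.30 for TBK1-cKD ∆control, and 9.04, 9.12 and 9.24 for those labelled TBK1-cKD ∆IKKe, and it rose by 1.06, 1.07, 0.80 and 1.87 (adjusted p at most 1.37e-06). No untreated library overlapped a treated one for either gene.

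Hk3 (chr13:55005985-55021385, - strand), a hexokinase of myeloid cells, was 8.37, 8.39 and 8.41 for TBK1-WT ∆control, 8.41, 8.59 and 8.56 for TBK1-WT ∆IKKe, 8.68, 8.82 and 8.82 for TBK1-cKD ∆control, and 8.71, 8.63 and 8.67 for those labelled TBK1-cKD ∆IKKe when untreated. After R837 it was 8.81, 8.25 and 8.27 for TBK1-WT ∆control, 8.29, 8.16 and 8.15 for TBK1-WT ∆IKKe, 8.61, 8.56 and 8.62 for TBK1-cKD ∆control, and 8.70, 8.59 and 8.88 for those labelled TBK1-cKD ∆IKKe. Its changes were 0.08 ± 0.11 (adjusted p = 0.52) for TBK1-WT ∆control, -0.32 ± 0.11 (adjusted p = 0.0108) for TBK1-WT ∆IKKe, -0.18 ± 0.11 (adjusted p = 0.132) for TBK1-cKD ∆control and 0.05 ± 0.11 (adjusted p = 0.662) for the labelled TBK1-cKD ∆IKKe libraries. The fall in TBK1-WT ∆IKKe passed the threshold and became 0.07 (adjusted p = 0.484) with nuclear RNA as a covariate, which coincides with treatment in that genotype. In the labelled TBK1-cKD ∆IKKe libraries the change became -0.33 (adjusted p = 0.0184) without the composition factor. Within TBK1-WT ∆control after R837, replicate 1, with the high nuclear RNA level, stood at 8.81 and the others at 8.25 and 8.27. On the RPKM scale Hk3 was 12.7 ± 1.1 times Hk2 and 3.49 ± 0.17 times Hk1 in untreated TBK1-WT ∆control (SD, n = 3). After R837 these ratios were 2.82 ± 0.37 and 1.76 ± 0.43, and in the labelled TBK1-cKD ∆IKKe libraries 1.67 ± 0.075 and 1.09 ± 0.076. Gpi1, the isomerase that follows, rose by 0.94, 0.77, 0.62 and 0.99, with levels of 7.05 to 7.99 untreated and 8.04 to 8.51 with R837. Its rise in TBK1-cKD ∆control was 0.33 (adjusted p = 0.0571) without the composition factor.

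At the committed step, Pfkfb3 (chr2:11471433-11554077, - strand) showed a wide difference between genotypes. Its product makes fructose 2,6-bisphosphate, the activator of phosphofructokinase. Untreated levels were 5.86, 6.02 and 6.00 for TBK1-WT ∆control, 5.91, 6.40 and 6.50 for TBK1-WT ∆IKKe, 6.26, 6.81 and 6.71 for TBK1-cKD ∆control, and 6.32, 6.36 and 6.41 for those labelled TBK1-cKD ∆IKKe. After R837 they were 9.10, 8.84 and 8.91 for TBK1-WT ∆control, 9.58, 9.51 and 9.56 for TBK1-WT ∆IKKe, 9.29, 9.36 and 9.58 for TBK1-cKD ∆control, and 11.40, 11.41 and 11.68 for those labelled TBK1-cKD ∆IKKe. The 3 libraries labelled TBK1-cKD ∆IKKe were above 11.3 and every other R837 library below 9.7. The rises were 3.00 ± 0.14 (adjusted p = 1.45e-13) for TBK1-WT ∆control, 3.26 ± 0.15 (adjusted p = 3.64e-14) for TBK1-WT ∆IKKe, 2.80 ± 0.14 (adjusted p = 3.74e-13) for TBK1-cKD ∆control and 5.14 ± 0.16 (adjusted p = 6.54e-17) for the labelled TBK1-cKD ∆IKKe libraries.

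Pfkfb4 (chr9:108991778-109032228, + strand), a second enzyme of that family with stronger phosphatase activity than Pfkfb3, did not rise. Untreated levels were 5.89, 5.87 and 5.95 for TBK1-WT ∆control, 5.96, 5.97 and 6.04 for TBK1-WT ∆IKKe, 5.94, 5.97 and 6.10 for TBK1-cKD ∆control, and 6.28, 6.24 and 6.21 for those labelled TBK1-cKD ∆IKKe. With R837 the levels became 5.85, 5.85 and 5.84 for TBK1-WT ∆control, 5.76, 5.72 and 5.73 for TBK1-WT ∆IKKe, 5.91, 5.45 and 5.89 for TBK1-cKD ∆control, and 5.59, 5.65 and 5.68 for those labelled TBK1-cKD ∆IKKe. It changed by -0.06 ± 0.08 (adjusted p = 0.533) for TBK1-WT ∆control, -0.25 ± 0.08 (adjusted p = 0.0101) for TBK1-WT ∆IKKe, -0.24 ± 0.08 (adjusted p = 0.0142) for TBK1-cKD ∆control and -0.61 ± 0.08 (adjusted p = 1.38e-06) for the labelled TBK1-cKD ∆IKKe libraries. The fall in TBK1-cKD ∆control was -0.10 (adjusted p = 0.0961) without R837 replicate 2, the shallowest library, and -0.19 (adjusted p = 0.0755) without untreated replicate 3. With nuclear RNA as a covariate it was -0.19 (adjusted p = 0.131), and that in TBK1-WT ∆IKKe -0.22 (adjusted p = 0.0897). By RPKM, Pfkfb3 was 0.655 ± 0.041 times Pfkfb4 in untreated TBK1-WT ∆control, 5.45 ± 0.51 times after R837, and 36.8 ± 3.3 times in the R837 libraries labelled TBK1-cKD ∆IKKe (SD, n = 3).

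Of the phosphofructokinase subunits, Pfkl rose by 1.93, 1.44, 1.24 and 2.23 in the 4 genotypes (adjusted p at most 0.000175), from levels of 6.65 to 8.01 untreated and 8.87 to 9.47 with R837. Pfkp, at 6.76 to 7.55 untreated and 7.01 to 7.78 with R837, changed by 0.24, 0.24, -0.07 and 0.77. The last of these, for the labelled TBK1-cKD ∆IKKe libraries, passed the threshold at 0.77 ± 0.12 (adjusted p = 7.28e-06). By RPKM, Pfkl was 1.22 ± 0.14 times Pfkp in untreated TBK1-WT ∆control and 3.96 ± 0.19 times after R837.

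The enzymes of lower glycolysis, which turn fructose bisphosphate into pyruvate, mostly rose. In TBK1-WT ∆control 7 of the 8 tested rose (30.6% of all genes), by between 0.43 for Aldoc and 1.73 for Pgam1: Tpi1 by 1.53, Pgk1 by 1.53, Eno1 by 1.45, Aldoa by 1.01 and Pkm by 0.97. The same 7 enzymes changed by 0.31 to 1.42 in TBK1-WT ∆IKKe, 0.28 to 1.48 in TBK1-cKD ∆control and 0.07 to 1.67 in the labelled TBK1-cKD ∆IKKe libraries, where Aldoc was in each case the lowest and did not pass. Its call in TBK1-WT ∆control ended without untreated replicate 1, at 0.36 (adjusted p = 0.0695). Its value in TBK1-WT ∆control was 0.16 (adjusted p = 0.314) without the composition factor and 0.32 (adjusted p = 0.0864) with nuclear RNA as a covariate. Its value in the labelled TBK1-cKD ∆IKKe libraries became -0.32 (adjusted p = 0.0458) without the composition factor. Levels ran from 9.38 to 10.22 untreated and 10.43 to 10.83 with R837 for Aldoa, 8.09 to 9.04 untreated and 9.54 to 10.32 with R837 for Tpi1, 6.57 to 7.52 untreated and 8.07 to 8.58 with R837 for Eno1 and 8.54 to 9.19 untreated and 9.51 to 9.87 with R837 for Pkm. Treated and untreated libraries did not overlap for these 4. Aldoc, the aldolase best known from brain, was at 5.27 to 5.91 untreated and 5.66 to 6.14 with R837, Pgk1 at 2.44 to 3.68 untreated and 3.87 to 5.45 with R837 and Pgam1 at 0.17 to 1.33 untreated and 1.28 to 2.64 with R837. With nuclear RNA as a covariate the Pgam1 and Pgk1 rises did not pass in TBK1-WT ∆IKKe, at 0.45 (adjusted p = 0.294) and 0.70 (adjusted p = 0.117), or in TBK1-cKD ∆control, at 0.65 (adjusted p = 0.122) and 0.82 (adjusted p = 0.0668). Aldoa, Ldha, Tpi1 and Pkm were the 4 most abundant members per length in TBK1-WT ∆control after R837: Aldoa was at 741 ± 71, Ldha at 589 ± 106, Tpi1 at 444 ± 65 and Pkm at 271 ± 4.9 RPKM (SD, n = 3).

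Eno2 (chr6:124760053-124769673, - strand), the enolase best known from neurons, fell where its sister Eno1 rose. Untreated levels were 3.97, 4.01 and 4.01 for TBK1-WT ∆control, 4.07, 4.25 and 4.29 for TBK1-WT ∆IKKe, 4.19, 4.30 and 4.40 for TBK1-cKD ∆control, and 4.32, 4.41 and 4.41 for those labelled TBK1-cKD ∆IKKe. In treated libraries they were 3.68, 1.94 and 1.93 for TBK1-WT ∆control, 2.01, 1.91 and 1.81 for TBK1-WT ∆IKKe, 1.70, 1.13 and 1.97 for TBK1-cKD ∆control, and 2.33, 2.10 and 4.12 for those labelled TBK1-cKD ∆IKKe. Replicate 1 of TBK1-WT ∆control and replicate 3 of the labelled TBK1-cKD ∆IKKe group, the 2 R837 libraries at the high nuclear RNA level, stood at 3.68 and 4.12, nearer to the untreated libraries than to the rest of their groups. Eno2 changed by -1.19 ± 0.40 (adjusted p = 0.0139) for TBK1-WT ∆control, -2.30 ± 0.44 (adjusted p = 9.63e-05) for TBK1-WT ∆IKKe, -2.64 ± 0.45 (adjusted p = 2.92e-05) for TBK1-cKD ∆control and -1.21 ± 0.40 (adjusted p = 0.0111) for the labelled TBK1-cKD ∆IKKe libraries. Without those 2 libraries the fall was -2.02 (adjusted p = 5.69e-12) in TBK1-WT ∆control and -2.11 (adjusted p = 1.05e-12) in the labelled TBK1-cKD ∆IKKe libraries. With nuclear RNA as a covariate the 4 falls were -0.28 (adjusted p = 0.0415), -0.46 (adjusted p = 0.0177), -0.79 (adjusted p = 0.000275) and -0.30 (adjusted p = 0.0248). The first call ended without R837 replicate 2 or 3, at -0.90 (adjusted p = 0.0771) and -0.92 (adjusted p = 0.0737), and the last without R837 replicate 1 or 2, at -0.93 (adjusted p = 0.0607) and -0.88 (adjusted p = 0.0658).

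Among the genes that decide where pyruvate goes, Slc16a3 (chr11:120948480-120960868, + strand) encodes MCT4, which exports lactate. Untreated levels were 6.40, 7.16 and 7.01 for TBK1-WT ∆control, 6.56, 8.19 and 8.12 for TBK1-WT ∆IKKe, 6.95, 8.46 and 8.34 for TBK1-cKD ∆control, and 7.10, 7.39 and 7.49 for those labelled TBK1-cKD ∆IKKe. After R837 they were 9.40, 10.06 and 9.97 for TBK1-WT ∆control, 10.30, 10.27 and 10.22 for TBK1-WT ∆IKKe, 10.06, 10.17 and 10.03 for TBK1-cKD ∆control, and 10.78, 10.73 and 10.26 for those labelled TBK1-cKD ∆IKKe, above every untreated library. It rose by 2.95 ± 0.37 (adjusted p = 5.44e-07) for TBK1-WT ∆control, 2.48 ± 0.36 (adjusted p = 3.91e-06) for TBK1-WT ∆IKKe, 2.03 ± 0.35 (adjusted p = 4e-05) for TBK1-cKD ∆control and 3.27 ± 0.37 (adjusted p = 1.15e-07) for the labelled TBK1-cKD ∆IKKe libraries. Ldha, which turns pyruvate into lactate, rose by 1.80, 1.80, 1.52 and 2.02 in the 4 genotypes (adjusted p at most 1.24e-07), from levels of 8.36 to 9.34 untreated and 9.98 to 10.91 with R837. Pdk1 encodes a kinase that inhibits pyruvate dehydrogenase in mitochondria, and its levels were 7.05 to 8.02 untreated and 7.46 to 8.08 with R837. It changed by 0.57, 0.37, 0.17 and 0.38, of which the first, 0.57 ± 0.18 (adjusted p = 0.00883), passed. That value was 0.30 (adjusted p = 0.127) without the composition factor and 0.37 (adjusted p = 0.104) with nuclear RNA as a covariate. No difference between Pdk1 responses passed the test.

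**Figure D3:**
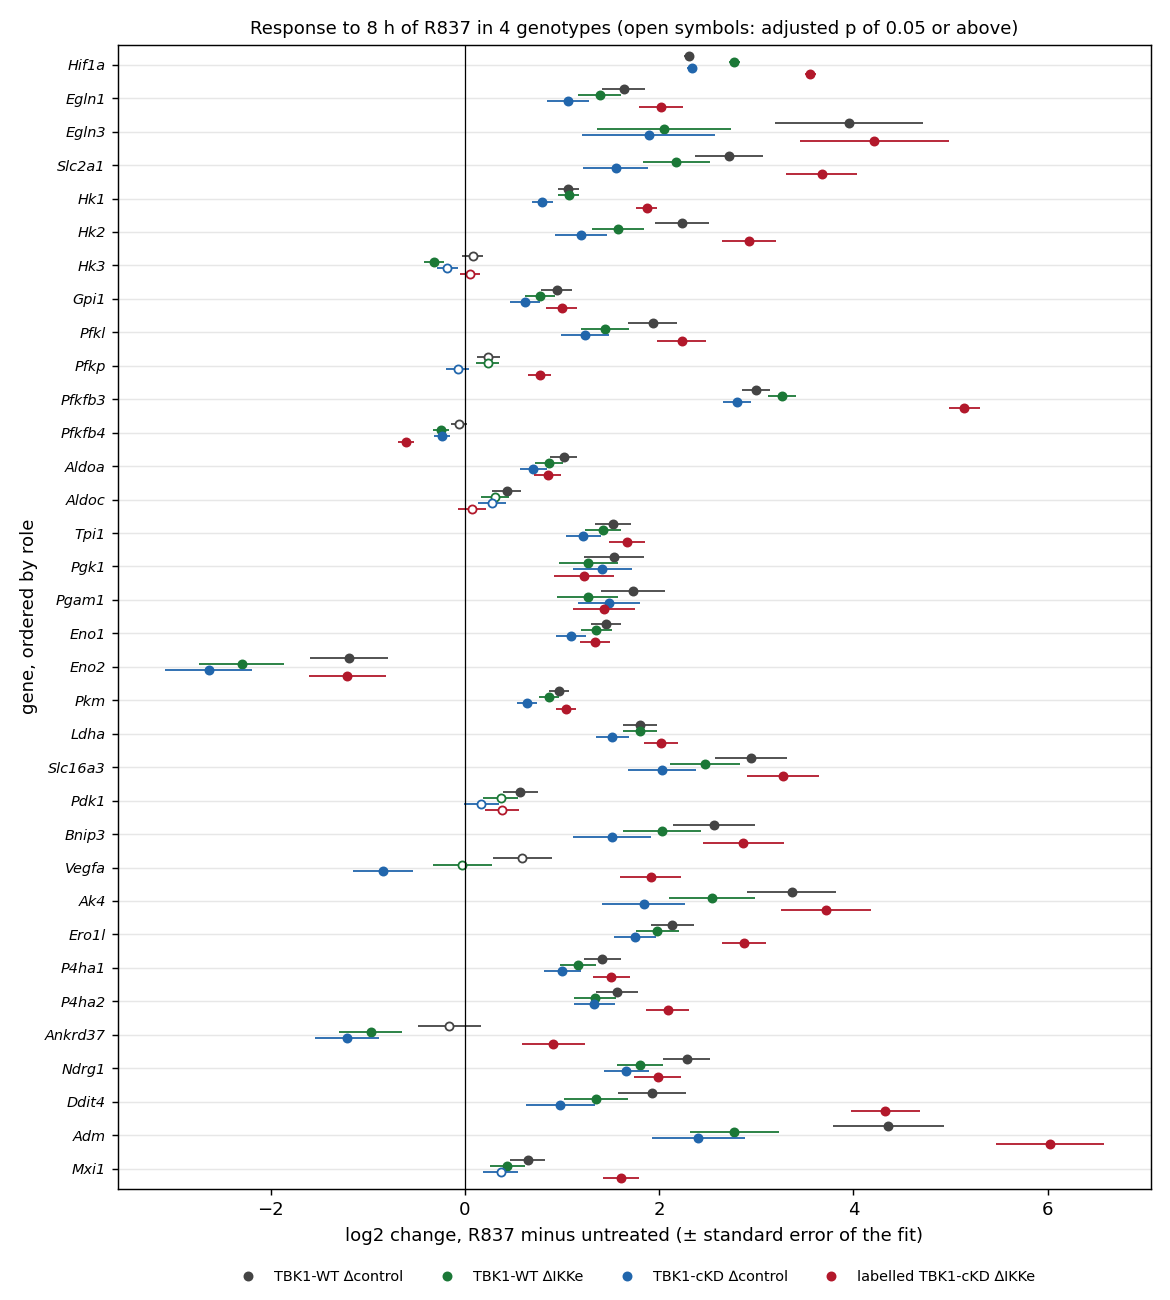
Log2 change after 8 h of R837 (horizontal axis) for the 34 tested genes in rows by role and 4 genotypes by colour, with bars of 1 standard error of the fit and open symbols for an adjusted p of 0.05 or above. Most points lie right of 0, Eno2 lies left in all 4 genotypes, and Pfkfb3, Ddit4 and Adm lie farthest right in the libraries labelled TBK1-cKD ∆IKKe.

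The remaining HIF1 targets, whose products act outside glycolysis, held both large rises and members that fell. Adm (chr7:110627661-110629820, + strand) encodes adrenomedullin, a vasodilator peptide. Untreated levels were -1.70, -0.79 and -2.02 for TBK1-WT ∆control, -1.19, 1.56 and 1.56 for TBK1-WT ∆IKKe, -1.21, 1.67 and 0.96 for TBK1-cKD ∆control, and -1.81, -0.54 and -0.80 for those labelled TBK1-cKD ∆IKKe, from 7 to 103 counts. With R837 the levels became 2.89, 3.10 and 2.87 for TBK1-WT ∆control, 3.88, 3.69 and 3.70 for TBK1-WT ∆IKKe, 3.01, 2.95 and 3.52 for TBK1-cKD ∆control, and 5.05, 4.94 and 4.98 for those labelled TBK1-cKD ∆IKKe. It rose by 4.36 ± 0.57 (adjusted p = 1.12e-06) for TBK1-WT ∆control, 2.77 ± 0.46 (adjusted p = 2.1e-05) for TBK1-WT ∆IKKe, 2.40 ± 0.48 (adjusted p = 0.000164) for TBK1-cKD ∆control and 6.02 ± 0.55 (adjusted p = 4.53e-09) for the labelled TBK1-cKD ∆IKKe libraries. The groups did not overlap in any genotype, but replicates 2 and 3 of untreated TBK1-WT ∆IKKe and TBK1-cKD ∆control stood above every other untreated library.

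Ak4 (chr4:101419277-101466995, + strand), a mitochondrial adenylate kinase, was 3.27, 4.10 and 3.89 for TBK1-WT ∆control, 3.23, 5.37 and 5.55 for TBK1-WT ∆IKKe, 4.13, 6.09 and 5.90 for TBK1-cKD ∆control, and 3.83, 4.19 and 4.47 for those labelled TBK1-cKD ∆IKKe when untreated. With R837 the levels became 6.82, 7.28 and 7.31 for TBK1-WT ∆control, 7.58, 7.60 and 7.49 for TBK1-WT ∆IKKe, 7.55, 7.28 and 7.45 for TBK1-cKD ∆control, and 8.02, 7.99 and 7.66 for those labelled TBK1-cKD ∆IKKe, above every untreated library. It rose by 3.36 ± 0.46 (adjusted p = 1.99e-06) for TBK1-WT ∆control, 2.54 ± 0.44 (adjusted p = 3.52e-05) for TBK1-WT ∆IKKe, 1.84 ± 0.43 (adjusted p = 0.000795) for TBK1-cKD ∆control and 3.72 ± 0.47 (adjusted p = 4.71e-07) for the labelled TBK1-cKD ∆IKKe libraries. Ddit4 (chr10:59949669-59951834, - strand) encodes REDD1, an inhibitor of mTORC1 signalling. Untreated levels were 0.70, 1.0 and 1.50 for TBK1-WT ∆control, 1.0, 2.54 and 2.49 for TBK1-WT ∆IKKe, 0.52, 2.46 and 1.58 for TBK1-cKD ∆control, and 1.13, 1.12 and 1.43 for those labelled TBK1-cKD ∆IKKe. In treated libraries they were 3.11, 2.99 and 2.86 for TBK1-WT ∆control, 3.44, 3.36 and 3.59 for TBK1-WT ∆IKKe, 2.60, 2.86 and 2.51 for TBK1-cKD ∆control, and 5.57, 5.54 and 5.56 for those labelled TBK1-cKD ∆IKKe. The treated libraries of TBK1-cKD ∆control lay near the highest untreated ones, while those labelled TBK1-cKD ∆IKKe were at 5.54 or above and every other library was at 3.59 or below. Ddit4 rose by 1.92 ± 0.35 (adjusted p = 6.61e-05) for TBK1-WT ∆control, 1.35 ± 0.33 (adjusted p = 0.00115) for TBK1-WT ∆IKKe, 0.98 ± 0.35 (adjusted p = 0.0178) for TBK1-cKD ∆control and 4.33 ± 0.35 (adjusted p = 6.16e-10) for the labelled TBK1-cKD ∆IKKe libraries. The TBK1-cKD ∆control value was 0.57 (adjusted p = 0.128) without untreated replicate 1 and 1.58 (adjusted p = 0.000606) without replicate 2. Without the composition factor it was 0.69 (adjusted p = 0.0873).

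Vegfa (chr17:46016993-46032369, - strand), the vascular growth factor, was 5.13, 5.67 and 5.52 for TBK1-WT ∆control, 5.20, 6.49 and 6.55 for TBK1-WT ∆IKKe, 5.75, 6.97 and 6.88 for TBK1-cKD ∆control, and 5.21, 5.42 and 5.69 for those labelled TBK1-cKD ∆IKKe when untreated. In treated libraries it was 6.51, 5.79 and 5.70 for TBK1-WT ∆control, 6.23, 6.19 and 6.08 for TBK1-WT ∆IKKe, 5.75, 5.74 and 5.87 for TBK1-cKD ∆control, and 7.12, 7.18 and 7.71 for those labelled TBK1-cKD ∆IKKe. It changed by 0.59 ± 0.31 (adjusted p = 0.101) for TBK1-WT ∆control, -0.03 ± 0.31 (adjusted p = 0.945) for TBK1-WT ∆IKKe, -0.84 ± 0.31 (adjusted p = 0.0211) for TBK1-cKD ∆control and 1.91 ± 0.32 (adjusted p = 1.89e-05) for the labelled TBK1-cKD ∆IKKe libraries: a fall in TBK1-cKD ∆control and a rise in the libraries labelled TBK1-cKD ∆IKKe. The groups overlapped in TBK1-cKD ∆control, whose replicate 1 was at 5.75 untreated, and the fall was -0.63 (adjusted p = 0.107) without untreated replicate 2, -0.69 (adjusted p = 0.0825) without replicate 3 and -0.17 (adjusted p = 0.732) with nuclear RNA as a covariate. The call also ended without R837 replicate 1 or 2, with adjusted p of 0.0537 and 0.0543.

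Ankrd37 (chr8:45996902-46005707, - strand), a small ankyrin repeat protein gene, was 3.55, 4.13 and 3.97 for TBK1-WT ∆control, 3.63, 5.07 and 5.13 for TBK1-WT ∆IKKe, 3.74, 5.29 and 4.88 for TBK1-cKD ∆control, and 3.46, 3.66 and 3.84 for those labelled TBK1-cKD ∆IKKe when untreated. After R837 it was 3.90, 3.66 and 3.65 for TBK1-WT ∆control, 3.86, 3.62 and 3.83 for TBK1-WT ∆IKKe, 3.39, 3.57 and 3.67 for TBK1-cKD ∆control, and 4.37, 4.46 and 4.84 for those labelled TBK1-cKD ∆IKKe. It changed by -0.16 ± 0.32 (adjusted p = 0.683) for TBK1-WT ∆control, -0.97 ± 0.32 (adjusted p = 0.0119) for TBK1-WT ∆IKKe, -1.22 ± 0.33 (adjusted p = 0.00279) for TBK1-cKD ∆control and 0.91 ± 0.32 (adjusted p = 0.0179) for the labelled TBK1-cKD ∆IKKe libraries. The fall in TBK1-WT ∆IKKe was -0.78 (adjusted p = 0.0577) without untreated replicate 2 and -0.73 (adjusted p = 0.0761) without replicate 3. With nuclear RNA as a covariate it was -0.61 (adjusted p = 0.263), and that in TBK1-cKD ∆control -0.86 (adjusted p = 0.115). The rise in the labelled TBK1-cKD ∆IKKe group was 0.75 (adjusted p = 0.0643) without R837 replicate 3 and 0.81 (adjusted p = 0.0668) without untreated replicate 1. It was 0.53 (adjusted p = 0.153) without the composition factor.

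The other targets rose in all 4 genotypes except where stated, with log2 changes given in the order TBK1-WT ∆control, TBK1-WT ∆IKKe, TBK1-cKD ∆control and labelled TBK1-cKD ∆IKKe. Bnip3, a receptor for mitophagy, rose by 2.56, 2.03, 1.51 and 2.87, from levels of 0.72 to 2.91 untreated and 3.46 to 4.83 with R837. Its rise in TBK1-cKD ∆control was 0.99 (adjusted p = 0.0749) with nuclear RNA as a covariate. Ndrg1, at 6.20 to 7.54 untreated and 8.24 to 9.14 with R837, rose by 2.28, 1.80, 1.66 and 1.98. Ero1l, an oxidase of disulfide formation in the endoplasmic reticulum, rose by 2.13, 1.98, 1.75 and 2.88, with levels of 4.82 to 6.10 untreated and 7.01 to 8.31 with R837. P4ha1 and P4ha2, subunits of the collagen prolyl hydroxylase, rose by 1.41, 1.16, 1.0 and 1.51 and by 1.57, 1.34, 1.33 and 2.09. Their levels were 7.19 to 8.25 untreated and 8.60 to 9.20 with R837 for P4ha1 and 3.67 to 5.02 untreated and 5.37 to 6.27 with R837 for P4ha2. Mxi1, which encodes an antagonist of Myc and stood at 5.30 to 6.17 untreated and 5.99 to 7.12 with R837, changed by 0.65, 0.43, 0.37 and 1.60 and did not pass in TBK1-cKD ∆control (adjusted p = 0.0761). Its call in TBK1-WT ∆IKKe ended when any of R837 replicates 1, 2 or 3 or untreated replicate 1 was left out, with adjusted p of 0.0839, 0.0751, 0.0516 and 0.259 and a change of 0.20 in the last case. Without the composition factor it was 0.13 (adjusted p = 0.539), and the rise in TBK1-WT ∆control 0.38 (adjusted p = 0.0678).

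Genotypes were then compared with TBK1-WT ∆control, whose 3 libraries all these comparisons share. Untreated TBK1-WT ∆IKKe gave 0 called members and 0% of all genes called by edgeR. At an unadjusted p under 0.05, 20 of 34 members were higher and 0 lower, and DESeq2 also called 0. In the genotype comparisons, shares of all genes called are given only for the main fit. Counts at an unadjusted p, by DESeq2 or by another fit have no such share beside them and cannot be read against it. The members' median difference was 0.49. For Egln3 it was 2.38 ± 0.73 (adjusted p = 1) and for Slc2a1 1.01 ± 0.33 (adjusted p = 1).

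In untreated TBK1-cKD ∆control 8 of 34 members were higher and 0 lower (2.4% and 2.65% of all genes): Slc2a1 by 1.53 ± 0.34 (adjusted p = 0.00811), Ak4 by 1.80 ± 0.44 (adjusted p = 0.0177), Vegfa by 1.17 ± 0.31 (adjusted p = 0.0297), Pfkfb3 by 0.65, Ldha by 0.60, Pfkp by 0.49, Hk3 by 0.39 and Hk1 by 0.37. At an unadjusted p under 0.05 none was lower, nor by DESeq2, which called 21 higher. A fit on these 2 groups alone called 26, again with no share of all genes beside it. The count in the fit of all libraries was 26 without TBK1-cKD ∆control replicate 1, 0 without its replicate 2 and 2 without its replicate 3. Without TBK1-WT ∆control replicates 1, 2 or 3 it was 1, 4 and 2. For 7 of the 8 called members, all but Hk1, replicate 1 of TBK1-cKD ∆control lay above the 3 TBK1-WT ∆control libraries, as did replicates 2 and 3. For Slc2a1 it was at 6.84, against at most 6.72 there and 8.47 and 8.30 in replicates 2 and 3. For Egln3 and Adm, which were not called, it lay within the range of TBK1-WT ∆control, at 2.30 and -1.21. In the labelled TBK1-cKD ∆IKKe libraries 1 member was higher, Pfkfb4 by 0.34 ± 0.08 (adjusted p = 0.00601), and 0 lower (8.52% and 5.1% of all genes). At an unadjusted p under 0.05 that was 3 and 0, and by DESeq2 2 and 0. Stromal markers summed to 54.7 to 66.8 CPM in untreated TBK1-WT ∆control, 51.9 to 66.7 in TBK1-WT ∆IKKe, 33.1 to 34.98 in TBK1-cKD ∆control and 19.97 to 27.5 in the labelled TBK1-cKD ∆IKKe group, and their part in these differences was not tested.

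After R837, TBK1-WT ∆IKKe differed from TBK1-WT ∆control in 2 members, Hif1a by 0.42 ± 0.05 (adjusted p = 4.35e-05) and Pfkfb3 by 0.60 ± 0.13 (adjusted p = 0.02), both higher, with 0 lower (1.14% and 0.708% of all genes; 1 lower at an unadjusted p under 0.05 and 0 by DESeq2). The Pfkfb3 call ended without any 1 of R837 replicates 1, 2 or 3 of TBK1-WT ∆IKKe or replicates 2 or 3 of TBK1-WT ∆control, with adjusted p between 0.059 and 0.0912. TBK1-cKD ∆control differed in 1 member, Pfkfb3 by 0.46 ± 0.13 (adjusted p = 0.0355), and 0 were lower (4.48% and 4.41% of all genes; 1 lower at an unadjusted p under 0.05 and 0 by DESeq2). That call too ended without replicate 2 or 3 of either group, with adjusted p between 0.0682 and 0.112. Between these genotypes, TBK1-cKD ∆control had -0.33 ± 0.05 (adjusted p = 0.000228) for Hif1a against TBK1-WT ∆IKKe and 0.39 ± 0.11 (adjusted p = 0.0246) for Hk3, 1 lower and 1 higher of 34 (3.35% and 3.75% of all genes). The Hk3 call ended without replicate 2 or 3 of TBK1-WT ∆IKKe or replicate 1 or 3 of TBK1-cKD ∆control, with adjusted p between 0.0565 and 0.102.

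The R837 libraries labelled TBK1-cKD ∆IKKe gave the highest count. In Tbk1 RNA all 3 lay above TBK1-cKD ∆control in log2 CPM, but only replicate 3 was within TBK1-WT ∆control. By RPKM replicates 1 and 2 were within TBK1-cKD ∆control. In Ikbke RNA replicate 3 goes against the label. Against TBK1-WT ∆control 13 of 34 members were higher and 0 lower (16.7% and 15.5% of all genes; 1 lower at an unadjusted p under 0.05 and 1 by DESeq2), with a median of 0.55. They were Ddit4 by 2.56 ± 0.31 (adjusted p = 1.17e-06), Pfkfb3 by 2.55 ± 0.14 (adjusted p = 9.58e-12), Adm by 2.03 ± 0.40 (adjusted p = 0.000433), Slc2a1 by 1.40 ± 0.33 (adjusted p = 0.00239), Hif1a by 1.32 ± 0.05 (adjusted p = 5.16e-14), Vegfa by 1.31 ± 0.31 (adjusted p = 0.00212), Ero1l by 1.13, Mxi1 by 1.08, Hk2 by 1.02, Hk1 by 0.95, Pfkp by 0.59, P4ha2 by 0.56 and Ldha by 0.44. Replicate 3, whose Ikbke RNA was at the level of TBK1-cKD ∆control, stood with replicates 1 and 2 for Ddit4 (5.56) and Adm (4.98). It stood apart above them for Pfkfb3 (11.68, against 11.40 and 11.41) and Vegfa (7.71, against 7.12 and 7.18). It stood apart below them for Slc2a1 (10.39, against 10.74 and 10.70) and Ldha (10.53, against 10.90 and 10.91). Replicate 3 was the lowest of 3 for 19 and the highest for 12 of the 34 members. Stromal markers after R837 summed to 36.6 to 48.4 CPM in TBK1-WT ∆control, 28.2 to 38.3 in TBK1-WT ∆IKKe, 21.7 to 29.3 in TBK1-cKD ∆control and 13.7 to 17.1 in the labelled TBK1-cKD ∆IKKe group, and their part in the differences was not tested.

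Without replicate 3 the differences were 2.56 (adjusted p = 2.09e-06) for Ddit4, 2.45 (adjusted p = 1.71e-11) for Pfkfb3, 2.03 (adjusted p = 0.000544) for Adm, 1.50 (adjusted p = 0.00231) for Slc2a1, 1.36 (adjusted p = 3.02e-14) for Hif1a and 1.10 (adjusted p = 0.0112) for Vegfa. Ero1l, Mxi1, Hk2, Hk1, Pfkp and Ldha also kept their calls, and P4ha2 did not, at 0.44 (adjusted p = 0.133). The P4ha2 call ended too without replicate 2, or without replicate 1, 2 or 3 of TBK1-WT ∆control, with adjusted p between 0.065 and 0.107. The Ldha call ended without replicate 1 or 2, or without replicate 1 or 3 of TBK1-WT ∆control, with adjusted p between 0.0511 and 0.207. P4ha2 and Ldha also lost their calls without the composition factor, at 0.36 (adjusted p = 0.182) and 0.24 (adjusted p = 0.235), and without the 2 R837 libraries at the high nuclear RNA level, at 0.39 (adjusted p = 0.201) and 0.41 (adjusted p = 0.0519). With nuclear RNA as a covariate, 20 members were higher, a count with no share of all genes beside it.

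For 15 of 34 members all 3 libraries labelled TBK1-cKD ∆IKKe lay above the other 9 R837 libraries (11.4% of all genes). Besides 11 of the 13 just named, these were Egln1, Pfkl, Ak4 and Ankrd37, whose differences of 0.52, 0.54, 0.75 and 0.83 did not pass the test. By RPKM, which has no composition factor, the lowest of the 3 fell below TBK1-WT ∆IKKe libraries for Egln1 (56.1 against up to 60.4) and Ak4 (36.8 against up to 38.2). In log2 CPM, the 3 TBK1-WT ∆control libraries lay below the other 9 for 12 of 34 (2.39%). By step of the pathway, of the 5 genes of uptake and trapping 3 were higher (Slc2a1, Hk1, Hk2), of the 4 at the committed step 2 (Pfkfb3, Pfkp), and of the 8 tested enzymes of lower glycolysis 0, where 16.7% of all genes were higher. Whether the steps differ was not tested. In lower glycolysis 1 was higher at an unadjusted p under 0.05, and 0 by DESeq2. Those 8 differed by a median of 0.13, with Tpi1 at 0.38 ± 0.18 (adjusted p = 0.121) and Pkm at 0.11 ± 0.10 (adjusted p = 0.464).

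**Figure D4:**
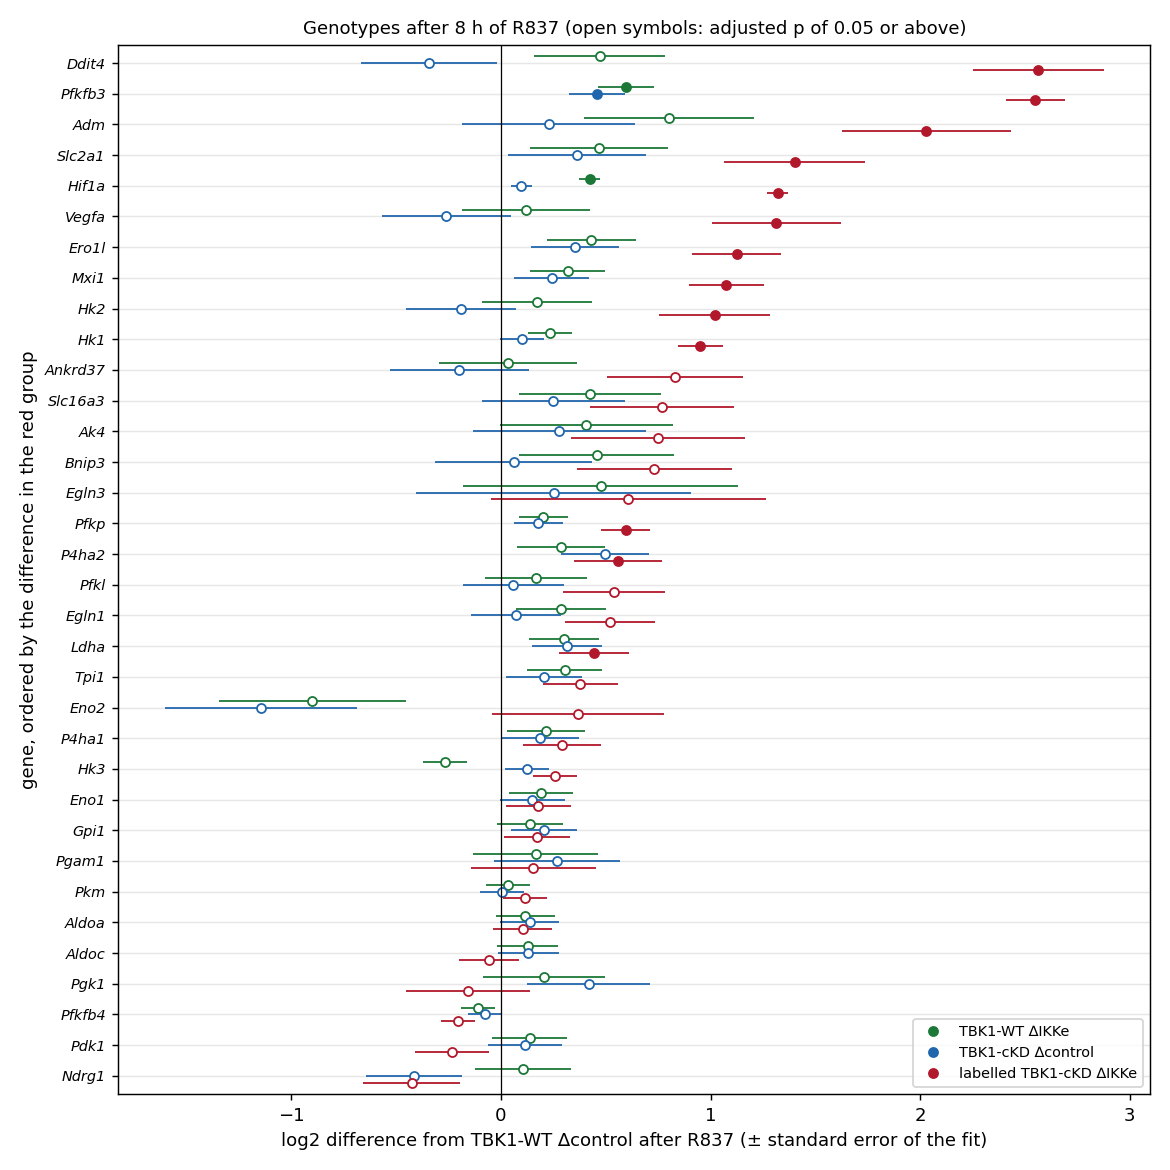
Log2 difference from TBK1-WT ∆control after R837 (horizontal axis) for the 34 tested genes in rows, ordered by the value in the libraries labelled TBK1-cKD ∆IKKe, with bars of 1 standard error of the fit, 1 colour per genotype and open symbols for an adjusted p of 0.05 or above. The labelled TBK1-cKD ∆IKKe points reach 2.56 for Ddit4 and 2.55 for Pfkfb3, while the other genotypes lie between -1.14 and 0.80.

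The differences were tested again as differences between R837 responses, which also use the untreated libraries. For the labelled TBK1-cKD ∆IKKe libraries against TBK1-WT ∆control, 7 of 34 members had a larger response and 1 a smaller one (7.38% and 9.96% of all genes). The larger were Ddit4 by 2.40 ± 0.49 (adjusted p = 0.00117), Pfkfb3 by 2.14 ± 0.19 (adjusted p = 5.3e-08), Vegfa by 1.32 ± 0.44 (adjusted p = 0.0408), Hif1a by 1.25 ± 0.07 (adjusted p = 6.36e-11), Mxi1 by 0.96 ± 0.25 (adjusted p = 0.011), Hk1 by 0.80 ± 0.15 (adjusted p = 0.000468) and Pfkp by 0.53 ± 0.17 (adjusted p = 0.0305), and the smaller was Pfkfb4 by -0.55 ± 0.12 (adjusted p = 0.00167). Without R837 replicate 3 the Vegfa value was 1.10 (adjusted p = 0.0885), and the other 7 kept their calls. The Vegfa and Pfkp calls each ended under 7 of the 12 fits that left out 1 library, with adjusted p between 0.0765 and 0.104 for Vegfa and between 0.0526 and 0.0899 for Pfkp.

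For TBK1-WT ∆IKKe 1 of 34 differed, Hif1a with a response larger by 0.47 ± 0.07 (adjusted p = 0.00253), and 0 were smaller (0.129% and 0.116% of all genes; 1 smaller at an unadjusted p under 0.05 and 0 by DESeq2). For TBK1-cKD ∆control 0 differed in either direction by edgeR (0.674% and 0.204% of all genes). At an unadjusted p under 0.05, 9 had a smaller response and 0 a larger one, and DESeq2 called 0. The share of all genes at that unadjusted threshold is not given. The R837 responses of Slc2a1 differed there by -1.17 ± 0.47 (adjusted p = 0.365) and of Egln3 by -2.06 ± 0.98 (adjusted p = 0.461).

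Other genes of the pathway responded less uniformly, in lists chosen with earlier results known. Of 26 tested among 35 other genes of glycolysis and pyruvate handling, 9 rose and 8 fell after R837 in TBK1-WT ∆control, where 30.6% of all genes rose and 32% fell. Slc2a6, which encodes a lysosomal transporter, rose by 2.84 ± 0.19, and Slc16a7, the monocarboxylate transporter MCT2, fell by 2.20 ± 0.10, with adjusted p of 2.73e-11 and 4.17e-14. Fbp1, a gluconeogenic enzyme, had 2, 4 and 1 counts untreated and 16, 8 and 5 after R837.

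Of 17 tested among 18 genes of oxygen sensing, 8 rose and 2 fell. Vhl, which encodes the ubiquitin ligase subunit that removes HIF1 alpha, rose by 1.42 ± 0.11 (adjusted p = 3.62e-10). Epas1, which encodes HIF2 alpha, fell: it was at 4.30, 4.32 and 4.20 log2 CPM untreated and 2.11, 1.40 and 1.97 after R837, a change of -2.41 ± 0.15 (adjusted p = 6.41e-12). Hif1a rose in the same libraries. Hif3a had 1, 1 and 0 counts untreated and 34, 25 and 16 after R837.

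Of 35 tested among 39 other HIF1 targets, 23 rose and 7 fell. Nos2, the inducible nitric oxide synthase, had 2, 0 and 0 counts untreated and 7301, 5192 and 4183 after R837. In the libraries labelled TBK1-cKD ∆IKKe it had 353, 244 and 322 counts untreated and 116202, 116687 and 136738 after R837. Edn1, which encodes endothelin 1, had 2 counts in each untreated library and 213, 152 and 135 after R837. Lox, a lysyl oxidase, rose by 4.67 ± 0.20 (adjusted p = 2.4e-14). Of the 10 pentose phosphate genes 6 rose and 1 fell: Pgd by 1.64 ± 0.08, H6pd by 1.08 ± 0.08 and G6pdx by 0.91 ± 0.06 were the largest, with adjusted p of 3.33e-13, 7.26e-11 and 1.12e-11.

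In the R837 libraries labelled TBK1-cKD ∆IKKe against TBK1-WT ∆control, 3 of the 26 other glycolysis and pyruvate genes were higher and 6 lower. Of the other lists, 1 was higher and 3 lower among 17 genes of oxygen sensing, 16 and 5 among 35 other HIF1 targets, and 1 and 3 among 10 pentose phosphate genes (16.7% and 15.5% of all genes).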

How the data were processed

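RNA of cultured mouse bone marrow-derived macrophages was sequenced as 50 base single-end reads in 24 libraries, 3 in each of 8 groups, with a kit that does not mark strand, per the labels' protocols. Reads were aligned with GSNAP to GRCm38, per the submitters' processing notes; the counter and the annotation release are not stated in the labels or file headers. The authors deposited 1 table per library with a whole-number count per gene and an RPKM value (reads per kilobase of gene length, scaled for depth). RPKM was used for levels and for ratios of different genes in the same libraries. It was also used to compare Tbk1, Ikbke, Hif1a, Egln1 and Ak4 between libraries without a composition factor, and it entered no test. Without strand, reads of a gene and of an overlapping antisense gene cannot be told apart, and genes with near-identical copies can lose reads. The tables hold 52636 gene identifiers. The 233 without a symbol (0.0187% of counts) went through the same filter, scaling and tests as the rest.

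Genes were kept by edgeR's filterByExpr (minimum count 10, minimum total 15), leaving 14681. Counts were scaled by TMM and fitted with edgeR 4.0.16 (R 4.3.3) by quasi-likelihood, with 1 mean per group over all 24 libraries, 16 residual degrees of freedom, a common biological coefficient of variation of 0.116, and Benjamini-Hochberg adjustment over all genes tested at 0.05. Standard errors come from the fold change and its F statistic. Each gene has 1 estimate of spread shared by all 8 groups. The errors and p-values therefore do not follow the spread within a single group, which was unequal for many members. Log2 CPM used an offset of 0.5. The method was tested on simulated data in which all groups had the same spread and few genes changed. That setting differs from these data, so it cannot show how the method does here. No 2 libraries of a group agreed within sampling noise (lowest chi-square per degree of freedom 1.93). Depth limits the precision of genes with few counts, such as Adm and Ddit4 in untreated cells.

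Tests covered 14 comparisons: each genotype's R837 response, the other genotypes against TBK1-WT ∆control without and with R837, TBK1-cKD ∆control against TBK1-WT ∆IKKe after R837, and the differences of responses from that of TBK1-WT ∆control. Alternatives were other size factors, no composition factor, DESeq2 1.42.0, no count filter, only the libraries compared, the nuclear RNA level as a covariate or its R837 libraries left out, and each replicate left out in turn. A fit on only the 14 libraries at the high nuclear RNA level was added after seeing the data. The members and lists were chosen with earlier results of these data known. Each member is accounted for. Values in all 24 libraries are given for 10 of them fixed by name (Hif1a, Egln1, Egln3, Slc2a1, Slc16a3, Hk1, Hk2, Hk3, Pfkfb3, Pfkfb4) and for those with the 3 largest rises or 3 largest falls among called members of an R837 response, or the 2 largest changes in a genotype comparison. From each other list the 3 called genes with the largest R837 change in TBK1-WT ∆control are named. The labels' protocols name 3 individual mice as the replicates.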

Additional observations from a re-analysis of the deposited data

Results flagged for a closer look

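For 8 genes the R837 response of the libraries labelled TBK1-cKD ∆IKKe differed from that of TBK1-WT ∆control, by a test of the difference itself (edgeR, quasi-likelihood, adjusted over all genes). On the log2 scale the differences were 2.40 for Ddit4, 2.14 for Pfkfb3, 1.32 for Vegfa, 1.25 for Hif1a, 0.96 for Mxi1, 0.80 for Hk1, 0.53 for Pfkp and -0.55 for Pfkfb4. For Hif1a the response of TBK1-WT ∆IKKe differed as well, by 0.47. In this last case all 3 R837 libraries of TBK1-WT ∆IKKe lay above all 3 of TBK1-WT ∆control. In the R837 libraries labelled TBK1-cKD ∆IKKe, replicate 3 carried Ikbke RNA at the level of TBK1-cKD ∆control, and the Vegfa difference was 1.10 (adjusted p = 0.0885) without it.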

How the results depend on the processing

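Of 155 called results for single genes, 113 kept their direction and their side of the threshold under every alternative run. Over 2089 alternative values of called results, 142 no longer passed and 1 reversed: Hk3 in the R837 response of TBK1-WT ∆IKKe, 0.074 once the nuclear RNA level entered as a term, which coincides with treatment in that genotype. Of results not called, 3 reversed: Hk3 in TBK1-cKD ∆control with that term (0.21), and, without the composition factor, Hk3 (-0.33) and Aldoc (-0.32) in the labelled TBK1-cKD ∆IKKe libraries. The counts of members that rose after R837 stayed within 1.5 times of the main count. The members that fell numbered, without the composition factor, 2 in TBK1-WT ∆control and 4 in the labelled TBK1-cKD ∆IKKe libraries. With only the libraries compared they were 0 and 1, and with the nuclear RNA term 1 in TBK1-WT ∆IKKe and 1 in TBK1-cKD ∆control. Leaving out 1 library gave 0 to 1 in TBK1-WT ∆control, 2 to 4 in TBK1-cKD ∆control and 1 to 2 in the labelled TBK1-cKD ∆IKKe libraries.

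In untreated TBK1-cKD ∆control the 8 higher members became 21 with DESeq2, 25 with no filter, 26 with only the libraries compared, 25 with the term, 17 with the 14 libraries at the high nuclear RNA level and 0 to 26 with 1 library left out. In the untreated libraries labelled TBK1-cKD ∆IKKe the 1 became 2, 2, 18, 4 and 4 in the same order. In untreated TBK1-WT ∆IKKe it was 0 to 1 with 1 library left out. After R837, TBK1-WT ∆IKKe had 1 higher member without the composition factor, 0 with only the libraries compared and 1 to 2 with 1 library left out. TBK1-cKD ∆control had 0, 0, 2 with the term, 2 without the R837 libraries at the high nuclear RNA level and 0 to 2, and 1 lower with no filter. The labelled TBK1-cKD ∆IKKe libraries had 20 higher with the term, and 3 lower without the composition factor, 1 with DESeq2 and 1 with the term. TBK1-cKD ∆control against TBK1-WT ∆IKKe had 0 higher without the composition factor, 6 lower with only the libraries compared, and 0 to 1 higher with 1 library left out. Differences of responses gave 1 smaller with no filter and 0 to 1 with 1 library left out for TBK1-cKD ∆control, and 12 larger with only the libraries compared and 4 with the 14 libraries for those labelled TBK1-cKD ∆IKKe. Shares of all genes are not given for these alternative counts. The causes were not tested. No paired analysis was possible because the labels give no replicate numbers and tie no library of one group to one of another. Genes with few counts, such as Adm when untreated (7 to 103 counts), are limited by depth.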
